A study of Rattus norvegicus with 12 samples.

Results

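The 10 genes described here belong to the VEGF and angiopoietin systems and were followed in rat esophagus during chemically induced carcinogenesis: the ligands Vegfa, Vegfb and Vegfc, the VEGF receptors Flt1, Kdr and Flt4, the angiopoietins Angpt1 and Angpt2, and the receptors Tek and Tie1. They were chosen by gene symbol, as the probe sets to which the platform annotation gives 1 of these names. All 10 were measured, by 14 of 31042 probe sets, among 14217 named genes. Total RNA from 12 esophageal samples was hybridised to an Affymetrix rat expression array, 1 array per sample and 3 per group. The groups were a normal control and rats given NMBA (N-nitrosomethylbenzylamine), a carcinogen for squamous epithelium of the esophagus, sampled at week 6, week 15 or week 29. In the labels these stages of tumor development are early, middle and late. Per the labels' protocols, NMBA was injected under the skin at 0.3 mg per kg body weight in 0.2 ml, 3 times weekly over 5 weeks, or the dimethyl sulfoxide and water solvent alone was injected instead; the labels of the control arrays say only that they are normal controls. Titles count the weeks plainly, whereas the source names count them after NMBA treatment, so the starting point of the count is not settled. The sources used here do not give the strain, sex or age of the rats, or the week of the controls. Submucosa and muscle were stripped from the tissue, per the labels' protocols. Whether every array came from its own animal is not stated, and the p-values cover the sample-to-sample spread, which may be technical.

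VEGF ligands bind receptor tyrosine kinases on endothelial cells. VEGF-A acts through FLT1 (VEGFR-1) and KDR (VEGFR-2, its main signalling receptor) to drive sprouting and permeability, VEGF-B binds FLT1, and VEGF-C acts through FLT4 (VEGFR-3) on lymphatic vessels. Angiopoietin-1, made mostly by perivascular cells, activates TEK (TIE2) and keeps vessels quiescent, and angiopoietin-2, released by endothelial cells, can oppose it. TIE1 is a related receptor without a well-established ligand of its own. In squamous epithelia the vessels lie in the stroma under the keratinocytes, which are themselves a source of VEGF-A.

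Values are log2 probe set signals, as deposited. A difference of 1 is a doubling of signal, and levels of different probe sets cannot be set against each other. Where a gene had several probe sets, the brightest on average stands for it. Differences were tested with limma across all probe sets, and a gene is called higher or lower at an adjusted p under 0.05. Array medians lay between 6.41 and 6.48. Keratinocyte markers were bright, with a list mean (12 of 14 genes measured, SD over 3 arrays) of 11.66 ± 0.15 for controls, then 11.00 ± 0.12, 12.02 ± 0.14 and 10.78 ± 0.39 for weeks 6, 15 and 29. Skeletal muscle genes were bright too, although muscle had been stripped: their list mean (25 of 26 measured) ranged from 11.73 to 12.29 for controls, and from 12.36 to 12.68, 10.22 to 11.69 and 12.15 to 12.33 for weeks 6, 15 and 29. The difference between the 3' and 5' GAPDH control probe sets, which grows as RNA degrades, was 0.40 ± 0.16 for controls, then 0.11 ± 0.04, 0.40 ± 0.19 and 0.17 ± 0.04 for weeks 6, 15 and 29. In such bulk samples, fewer cells of a type and less RNA per cell cannot be told apart. The part of muscle content and RNA quality in the results was not tested beyond the fits with each as a covariate. Every week 15 muscle mean lay below those of the other groups, so the fit with it separates muscle mean and group poorly there.

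**Figure D1:**
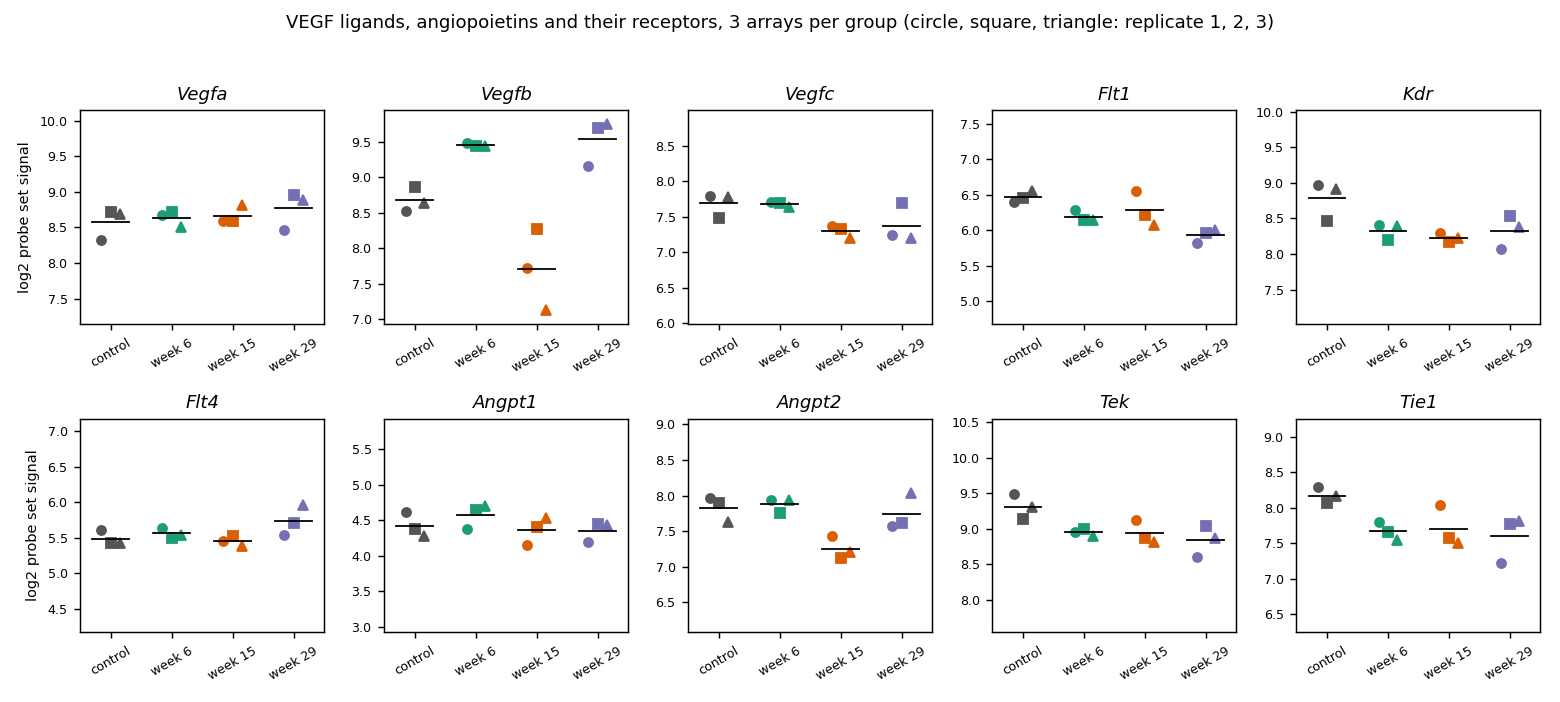
Log2 signal (vertical axis, the same span in every panel) of the probe set that stands for each of the 10 genes, by group, with 1 point per array and a bar at the mean of 3. Vegfb lies above every control at weeks 6 and 29 and below every control at week 15, and Tek and Tie1 lie below every control in all 9 NMBA arrays.

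Of the 10 genes, 6 were called against control at some stage, and 4 (Vegfa, Vegfc, Flt4 and Angpt1) at none. The share of all genes called at any stage was not counted, so this count has no base beside it. Shares for each single stage are given below. Vegfb was lower than in controls at week 15 and higher at week 29. Angpt2 and Kdr were lower at week 15, and Flt1, Tek and Tie1 were lower at week 29. Against controls, 0 of 10 members were called at week 6 by limma (5 at an unadjusted p under 0.05), where 5.07% of all genes were called higher and 3.76% lower. Over all genes, 4482 of 14217 were at an unadjusted p under 0.05 at week 6. At week 15, 3 members were lower and 0 higher, against 8.38% and 1.54% of all genes. At week 29, 3 were lower and 1 higher, against 10.8% and 8.44%. The median difference of the 10 members from control was 0.02 at week 6, -0.38 at week 15 and -0.20 at week 29, beside -0.03, 0.03 and 0.01 over all genes. These comparisons share the same 3 control arrays. Between stages, 3 members were lower and 0 higher at week 15 than at week 6, where 21.2% of all genes were lower and 22.7% higher. From week 15 to week 29, 2 members rose and 1 fell, where 21.1% of genes rose and 22.4% fell. Between weeks 6 and 29 limma called 0 members (2 at an unadjusted p under 0.05), and 0% of genes were higher and 0% lower (1166 of 14217 at an unadjusted p under 0.05).

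**Figure D2:**
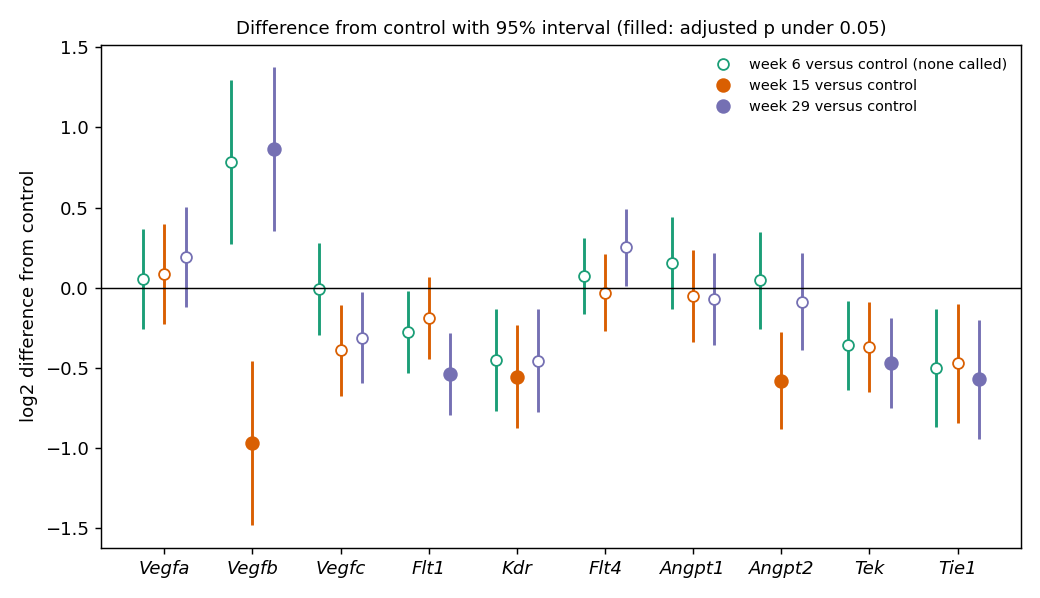
Log2 difference from control (vertical axis) of the 10 genes at weeks 6, 15 and 29, with the 95% interval of the limma fit. Filled points are called at an adjusted p under 0.05: Vegfb, Kdr and Angpt2 at week 15 and Vegfb, Flt1, Tek and Tie1 at week 29. None is filled at week 6.

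Vegfb, a ligand best known from heart and skeletal muscle, showed the widest range of the members. Its signal was 8.52, 8.86 and 8.64 in the controls, 9.48, 9.44 and 9.44 at week 6, 7.72, 8.27 and 7.13 at week 15, and 9.17, 9.69 and 9.75 at week 29. Every week 6 and week 29 array lay above every control, and every week 15 array below. At week 15 Vegfb was 0.97 ± 0.24 lower on the log2 scale than in controls (log2 difference -0.97, SE, n = 3 per group, limma adjusted p = 0.0283), a 1.96-fold lower signal. At week 29 it was 0.86 ± 0.24 higher (adjusted p = 0.0322), 1.82-fold. At week 6 it was at 0.78 (95% interval 0.27 to 1.29, adjusted p = 0.0608). It was called there with only the 6 arrays compared (adjusted p = 0.0154), with array weights (0.00496), without the week 15 arrays (0.0129), and without week 15 replicate 2 (0.0225), week 15 replicate 3 (0.0216) or week 29 replicate 1 (0.0464). With the muscle mean as a covariate it was at 0.41 (0.206). From week 6 to week 15 it fell by 1.75 ± 0.24 (adjusted p = 0.000212), 3.36-fold, and from week 15 to week 29 it rose by 1.83 ± 0.24 (adjusted p = 0.000145), 3.56-fold. In order of mean level the groups ran week 29 (9.54 ± 0.32), week 6 (9.46 ± 0.02), control (8.67 ± 0.17) and week 15 (7.71 ± 0.57). Weeks 29 and 6 differed by 0.08 (95% interval -0.43 to 0.59), within their spread.

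Skeletal muscle and fibroblast genes were lower at week 15 as well. In the 3 week 15 arrays the skeletal muscle list mean was 11.16, 11.69 and 10.22, and the array with the lowest muscle mean, replicate 3, also had the lowest Vegfb. That trait was not particular to muscle. The same array had the lowest fibroblast (9.68), lymphatic endothelial (7.87), pericyte (7.51) and macrophage and myeloid (6.25) list means of all arrays. Its keratinocyte list mean (12.16) was the highest. Of the 25 measured muscle genes, 23 were lower at week 15 than at week 6 and 19 were higher at week 29 than at week 15, with 0 in the opposite direction both times. Against control, 3 of the 25 were called lower and 0 higher at week 15, and 0 were called at weeks 6 and 29. Their median log2 difference from control was 0.37, -0.89 and 0.34 at weeks 6, 15 and 29. The fibroblast list mean ranged from 10.84 to 11.49 in controls, 10.95 to 11.21 at week 6, 9.68 to 10.23 at week 15 and 10.84 to 11.28 at week 29. Of its 8 genes, 8 were lower at week 15 than in controls and 7 lower than at week 6, and 7 were higher at week 29 than at week 15. The same arrays carry the week 15 values of Angpt2 and Vegfc, and the part of fibroblast content in any of the 3 was not tested. With the muscle mean as a covariate, Vegfb was at -0.25 (adjusted p = 0.615) at week 15 against control and at -0.66 (adjusted p = 0.207) against week 6. In that fit it was 0.95 higher at week 29 than at week 15 (adjusted p = 0.0438) and 0.70 higher at week 29 than in controls (adjusted p = 0.0167). The fall at week 15 against control was not called when control replicate 2 (-0.88, adjusted p = 0.0997) or 3 (-0.98, 0.0732) was left out, or replicate 1 (-0.98, 0.0596) or 3 (-0.68, 0.0749) of week 15, nor with only the 6 arrays compared (-0.97, 0.101). The rise at week 29 against control was not called when control replicate 1 (0.79, adjusted p = 0.105) or 3 (0.85, 0.0914) was left out, or replicate 2 (0.79, 0.11) or 3 (0.75, 0.136) of week 29, nor when the GAPDH value entered the fit (0.67, 0.255). With the endothelial list mean as a covariate neither was called (-0.70, 0.374 at week 15, and 1.32, 0.144 at week 29). The differences between weeks 6 and 15 and between weeks 15 and 29 were called in all 12 fits that left out 1 array.

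**Figure D3:**
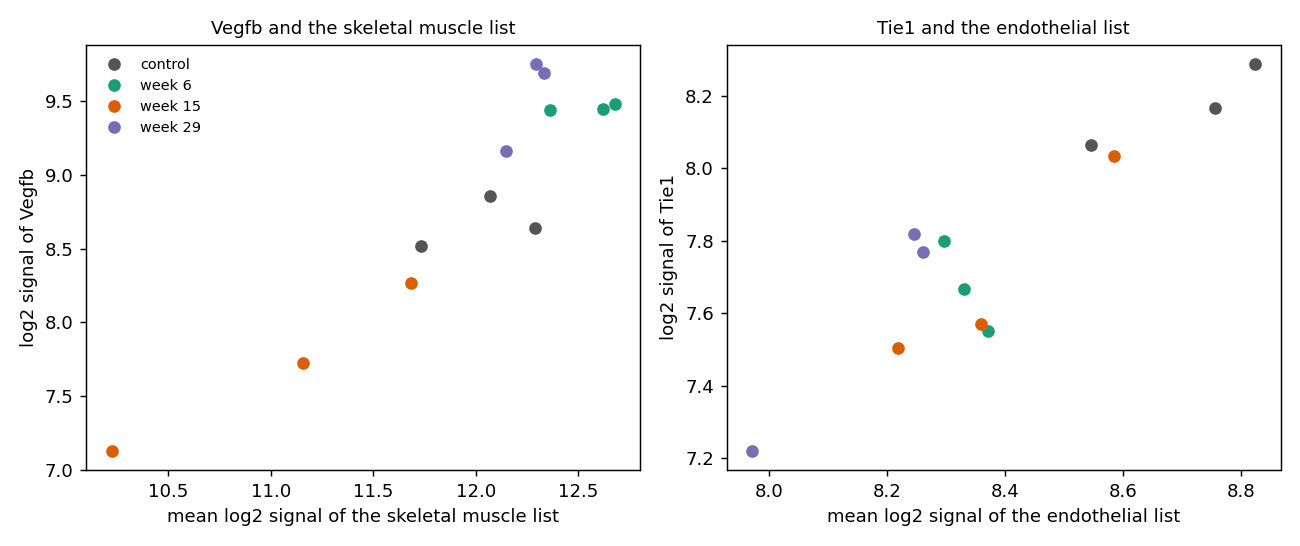
Left, the log2 signal of Vegfb against the mean log2 signal of 25 skeletal muscle genes, 1 point per array. Right, the log2 signal of Tie1 against the mean of 17 endothelial genes. The week 15 arrays lie lowest on both axes at left, at muscle means of 10.22 to 11.69, and in the right panel the controls have the highest Tie1, at 8.06 to 8.29.

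The promoter of Vegfb is shown because Vegfb differed most between the stages. RefSeq windows were found for 7 of the 10 genes (8 windows, GRCr8), and Angpt1, Angpt2 and Tek have none there. The sequence covers the 250 bases before the start site at chr1:213607153-213607402 on the minus strand, written 5′ to 3′ along the gene. Capitals mark AGGTCA, the core letters bound by nuclear receptors, searched on both strands.
Vegfb promoter: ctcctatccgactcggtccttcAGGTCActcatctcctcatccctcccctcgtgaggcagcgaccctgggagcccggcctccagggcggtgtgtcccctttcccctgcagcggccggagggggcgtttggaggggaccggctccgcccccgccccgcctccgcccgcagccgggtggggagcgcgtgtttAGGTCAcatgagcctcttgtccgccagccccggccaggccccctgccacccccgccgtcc
It holds 2 matches, which begin 228 and 60 bases before the start site. Of 33469 rat windows of this length, 14.1% hold at least 1. The motif was chosen with the sequence in view, and a match is a description of letters only.

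Vegfa, the main angiogenic ligand, gave no called difference from control. The brighter of its probe sets, which stands for it, read 8.33, 8.72 and 8.69 in controls, 8.67, 8.71 and 8.51 at week 6, 8.59, 8.60 and 8.81 at week 15, and 8.47, 8.96 and 8.89 at week 29, and all groups overlapped. Its differences from control were 0.05 (95% interval -0.26 to 0.36), 0.08 (-0.23 to 0.40) and 0.19 (-0.12 to 0.51) at weeks 6, 15 and 29. The dimmer probe set gave other values. It read 6.77, 7.06 and 7.03 in controls, 7.47, 7.31 and 7.57 at week 6, 6.65, 7.18 and 7.24 at week 15, and 7.14, 7.30 and 7.50 at week 29, so that weeks 6 and 29 lay above every control. The differences were 0.50 ± 0.16 at week 6 (adjusted p = 0.0714) and 0.36 ± 0.16 at week 29 (adjusted p = 0.138), neither called. From week 6 to week 15 this probe set fell by 0.43 ± 0.16 (limma adjusted p = 0.0492), while the brighter was at 0.03 (adjusted p = 0.878). A statement on Vegfa therefore depends on the probe set.

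**Figure D4:**
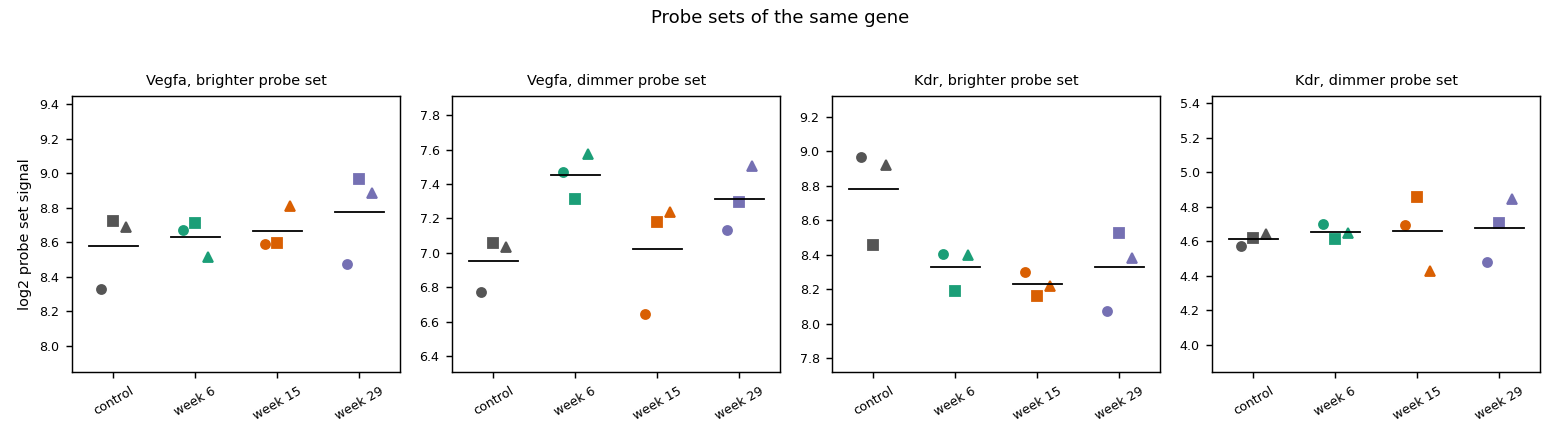
Log2 signal (vertical axis, the same span in every panel) of both probe sets of Vegfa and of both of Kdr by group, 1 point per array, bar at the mean of 3. The dimmer Vegfa probe set is above every control at weeks 6 and 29 and the brighter is not, and the dimmer Kdr probe set stays between 4.43 and 4.86 in all groups.

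Vegfc, the lymphatic ligand, was at 7.80, 7.49 and 7.78 in controls, 7.71, 7.70 and 7.64 at week 6, 7.37, 7.34 and 7.20 at week 15, and 7.25, 7.69 and 7.20 at week 29. The week 15 arrays lay below all controls and all week 6 arrays, and week 29 overlapped every other group. The fall from week 6 to week 15 was 0.38 ± 0.13 on the log2 scale (limma adjusted p = 0.0371), and the difference from control at week 15 was -0.39 ± 0.13 (adjusted p = 0.0893). The week 6 to 15 fall was called in 6 of 12 fits without 1 array. It was not called without week 6 replicate 1, 2 or 3 or week 15 replicate 1, 2 or 3 (adjusted p from 0.0568 to 0.106, log2 differences -0.33 to -0.42), nor with the muscle mean as a covariate (-0.24, 0.631). Nor was it called after quantile normalization (-0.35, 0.0528), with array weights (-0.38, 0.0533) or with a replicate block (-0.38, 0.0541).

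Among the VEGF receptors, Flt1 was lower than in controls at week 29 and Kdr at week 15, and Flt4 gave no called difference. Flt1, which binds VEGF-A tightly and also exists as a soluble decoy, read 6.39, 6.46 and 6.55 in controls, 6.28, 6.14 and 6.15 at week 6, 6.55, 6.21 and 6.07 at week 15, and 5.82, 5.96 and 6.01 at week 29. All week 29 arrays lay below every array of the other groups, and week 6 lay below the controls. At week 29 Flt1 was lower than in controls by a log2 difference of -0.54 ± 0.12 (SE, n = 3 per group, limma adjusted p = 0.0165), 1.45-fold, and lower than at week 15 by -0.35 ± 0.12 (adjusted p = 0.035). At week 6 the difference from control was -0.28 (adjusted p = 0.154) and at week 15 it was -0.19 (adjusted p = 0.336). With array weights Flt1 was called lower at week 6 (-0.275, 0.0475). Its other probe sets differed from this one. For the second brightest the differences from control were -0.23, -0.24 and -0.27 at weeks 6, 15 and 29, none called, and for the dimmest they were 0.08, 0.06 and -0.38 (adjusted p = 0.086 at week 29), with a called fall of 0.44 from week 15 to week 29 (adjusted p = 0.028). The week 29 difference of Flt1 from control was not called when control replicate 1 (-0.57, adjusted p = 0.0514) or 3 (-0.50, 0.0635) was left out, or replicate 2 (-0.55, 0.0567) or 3 (-0.58, 0.0609) of week 29. The fall from week 15 was not called with array medians subtracted (-0.30, 0.0595), without week 15 replicate 1 (-0.21, 0.135) or week 29 replicate 1, 2 or 3 (-0.30, 0.104; -0.36, 0.0728; -0.39, 0.054). It was not called either with only the 6 arrays compared (-0.35, 0.0993), with a replicate block (-0.35, 0.0542) or with the muscle (-0.57, 0.0978), GAPDH (-0.22, 0.295) or endothelial (-0.20, 0.262) covariate.

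Kdr, the main signalling receptor for VEGF-A, read 8.97, 8.46 and 8.92 in controls, 8.40, 8.19 and 8.40 at week 6, 8.30, 8.16 and 8.22 at week 15, and 8.07, 8.53 and 8.38 at week 29. Weeks 6 and 15 lay below every control, and week 29 overlapped control replicate 2. The log2 difference from control was -0.55 ± 0.15 at week 15 (limma adjusted p = 0.0394), 1.47-fold lower. It was -0.45 at week 6 (adjusted p = 0.0756) and -0.46 at week 29 (adjusted p = 0.0551), neither called. Both were called with array weights (adjusted p = 0.0164 and 0.0379) and without control replicate 2. The week 29 difference was also called with dim probe sets left out (0.0486). The 3 NMBA groups differed from each other by at most 0.10, within their spread. The week 15 call held in 3 of 12 fits without 1 array, those without control replicate 2, week 29 replicate 1 or week 29 replicate 2, and the adjusted p in the other 9 ran from 0.0514 to 0.125. After quantile normalization it was not called either (-0.51, 0.0556). Nor was it called with only the 6 arrays compared (adjusted p = 0.101), the muscle covariate (0.317) or a replicate block (0.0522). The dimmer Kdr probe set read between 4.43 and 4.86 on all arrays, with differences from control of 0.04 to 0.07.

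Flt4, the receptor of lymphatic endothelium, read 5.61, 5.43 and 5.43 in controls, 5.64, 5.50 and 5.55 at week 6, 5.46, 5.53 and 5.39 at week 15, and 5.55, 5.71 and 5.97 at week 29. The week 29 arrays lay above all week 15 arrays and overlapped the controls. Its log2 difference from control was 0.07 at week 6, -0.03 at week 15 and 0.25 at week 29 (95% interval 0.01 to 0.49, limma adjusted p = 0.135), and from week 15 to week 29 it was 0.28 (adjusted p = 0.0638). That last difference was called with array medians subtracted (0.33, 0.0369) and after quantile normalization (0.32, 0.0369). Genes of lymphatic endothelium (6 of 6 measured) had a list mean of 8.50 to 8.79 in controls, 8.63 to 8.84 at week 6, 7.87 to 8.31 at week 15 and 8.64 to 8.86 at week 29. At week 15, 3 of the 6 were lower than in controls: Lyve1 by a log2 difference of -0.73, Mmrn1 by -0.92 and Ccl21 by -0.73. At week 29, 4 of the 6 were higher than at week 15, while Vegfc differed by 0.08 between those stages (adjusted p = 0.692).

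Of the angiopoietins, Angpt2 was called lower at week 15 and Angpt1 was called at no stage; the difference between them was not tested. Angpt2, the vessel-destabilising ligand, read 7.97, 7.89 and 7.63 in controls, 7.94, 7.76 and 7.94 at week 6, 7.42, 7.12 and 7.21 at week 15, and 7.57, 7.61 and 8.04 at week 29. The week 15 arrays lay below every array of the other groups, and those groups overlapped one another. Angpt2 was lower at week 15 than in controls by a log2 difference of -0.58 ± 0.14 (SE, n = 3 per group, limma adjusted p = 0.0276), 1.49-fold. It fell by 0.63 ± 0.14 from week 6 to week 15 (adjusted p = 0.00429) and rose by 0.49 ± 0.14 from week 15 to week 29 (adjusted p = 0.0157). At week 6 it was 0.05 from control (95% interval -0.26 to 0.35) and at week 29 -0.09 (-0.39 to 0.21). With the muscle mean as a covariate none of the 3 differences was called, at -0.63 (adjusted p = 0.247), -0.70 (0.191) and 0.55 (0.198). Each was at least as large as without it. The week 15 difference from control was not called when control replicate 1 (-0.51, 0.0803) or 2 (-0.55, 0.0916) was left out, or replicate 2 (-0.51, 0.0606) or 3 (-0.56, 0.0764) of week 15. The fall from week 6 was called in all 12 such fits, and the later rise in 10, not without week 15 replicate 2 (0.43, 0.0508) or week 29 replicate 3 (0.34, 0.0731). The week 15 difference from control was also not called with only the 6 arrays compared (0.078), array weights (0.0752) or the endothelial covariate (0.372).

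Angpt1, the stabilising ligand, read 4.61, 4.37 and 4.28 in controls, 4.38, 4.65 and 4.70 at week 6, 4.16, 4.41 and 4.54 at week 15, and 4.19, 4.44 and 4.43 at week 29. All groups overlapped. Its log2 differences from control were 0.15, -0.05 and -0.07 (limma adjusted p = 0.497, 0.826 and 0.75). The mean signal was under the value of 5 used to mark dim probe sets, as for 26.4% of all probe sets, and a difference at that level may not be detectable.

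Tek and Tie1, the receptors of the angiopoietin system, were lower than in controls at week 29. Tek, the angiopoietin receptor, read 9.49, 9.14 and 9.30 in controls, 8.95, 9.00 and 8.90 at week 6, 9.13, 8.87 and 8.82 at week 15, and 8.61, 9.04 and 8.88 at week 29. Tie1 read 8.29, 8.06 and 8.17 in controls, 7.80, 7.67 and 7.55 at week 6, 8.03, 7.57 and 7.50 at week 15, and 7.22, 7.77 and 7.82 at week 29. For both genes, all 9 NMBA arrays lay below the lowest control, and the NMBA groups overlapped one another. At week 29 Tek was lower by a log2 difference of -0.47 ± 0.13 (limma adjusted p = 0.0332), 1.38-fold, and Tie1 by -0.57 ± 0.17 (adjusted p = 0.0431), 1.49-fold. At weeks 6 and 15 the differences were of like size and not called, for Tek -0.36 (adjusted p = 0.0996) and -0.37 (0.0982), and for Tie1 -0.50 (0.0864) and -0.47 (0.111). With array weights both were called at week 6 (Tek 0.0294, Tie1 0.0271). Tie1 was also called at week 6 with only the 6 arrays compared (0.0204) and without week 29 replicate 1. At week 15 Tek was called with the GAPDH covariate (0.0443) and Tie1 without week 15 replicate 1. Tek at week 29 was not called when control replicate 1 (-0.38, 0.119) or 3 (-0.47, 0.0893) was left out, or any array of week 29 (replicate 1, -0.35, 0.0752; replicate 2, -0.57, 0.0541; replicate 3, -0.49, 0.105). Tie1 was called in 3 of 12 such fits, those without week 15 replicate 1, 2 or 3, and the adjusted p in the other 9 ran from 0.0501 to 0.13, and it was not called after quantile normalization (-0.50, 0.077). With only the 6 arrays compared neither gene was called at week 29 (Tek 0.058, Tie1 0.0531). Tie1 was also not called with the muscle covariate (-0.60, 0.0503) or a replicate block (-0.57, 0.062).

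Endothelial genes outside the family were lower alongside these receptors. Of 17 measured of a list of 20, 4 were lower at week 6, 4 at week 15 and 11 at week 29, with 0 higher each time, and their median difference from control was -0.36, -0.29 and -0.50. Plvap, a protein of endothelial fenestrae, was lower at week 6 by a log2 difference of -0.71 (limma adjusted p = 0.0184) and at week 29 by -1.09 (0.00169), against -0.04 at week 15. Clec14a, an endothelial surface lectin, was lower at all 3 stages (-0.64, -0.73 and -1.12), as were the sialomucin Emcn (-0.59, -0.63 and -0.89) and the transcription factor Sox17 (-0.55, -0.56 and -0.75). The adhesion molecule Icam2 was lower at week 15 (-0.57, 0.0238). The list mean ranged from 8.55 to 8.82 in controls, 8.30 to 8.37 at week 6, 8.22 to 8.58 at week 15 and 7.97 to 8.26 at week 29. With this mean as a covariate, the week 29 difference from control was 0.10 for Tek (adjusted p = 0.746) and 0.20 for Tie1 (0.618), so that both turned in sign, and -0.17 for Flt1 (0.642). Kdr at week 15 was at -0.22 (0.576) in that fit. The list means of controls and week 29 did not overlap, so the fit cannot separate list mean and group there. The signal of Tek minus the list mean was 0.60 in controls and 0.62, 0.55 and 0.68 at weeks 6, 15 and 29, and that of Kdr was 0.07, -0.0028, -0.16 and 0.17. For Tie1 it was -0.54 in controls and -0.66, -0.69 and -0.56, and for Flt1 -2.24 and -2.15, -2.11 and -2.23. The GAPDH value moved with week 29 as well: with it as a covariate, Tek was at -0.25 (0.325), Tie1 at -0.30 (0.388) and Flt1 at -0.41 (0.176). GAPDH values of controls and week 29 did not overlap either, nor did those of controls and week 6, so the fit cannot separate GAPDH value and group there. At week 6 against control, 0 members were at an unadjusted limma p under 0.05 with this covariate, against 5 without it.

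**Figure D5:**
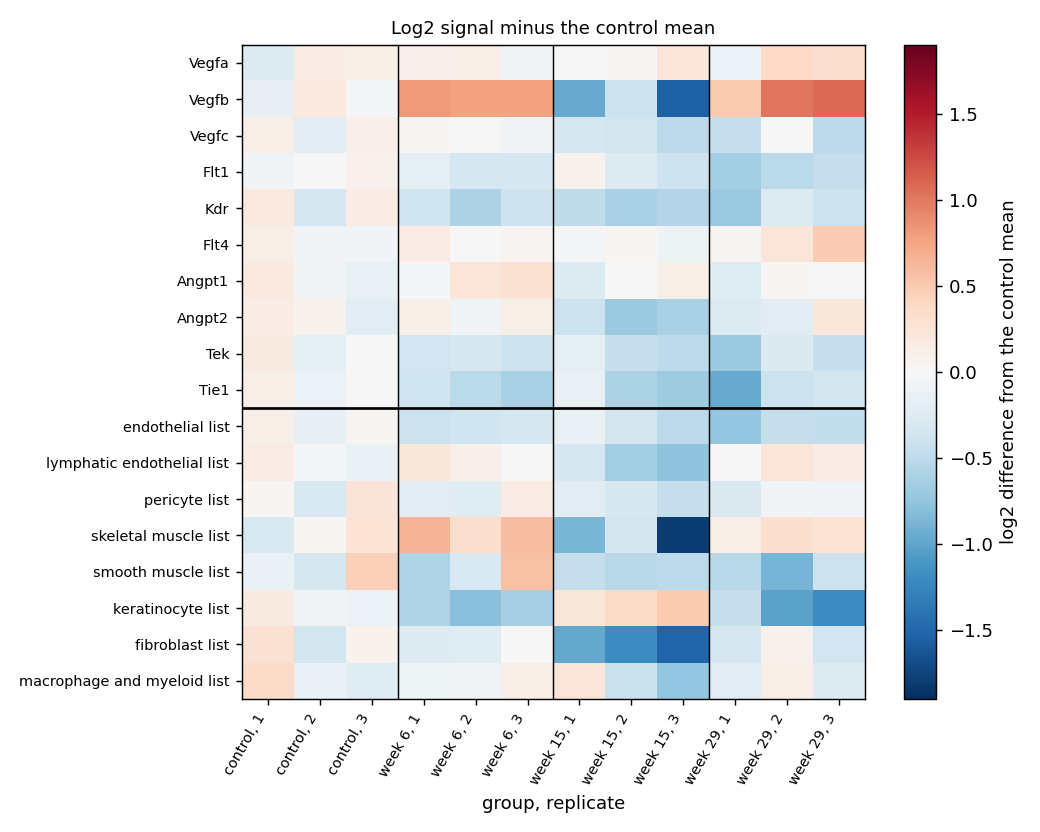
Log2 signal of each array minus the control mean, for the 10 genes (above the line) and for the mean of 8 marker lists (below it), with arrays in columns by group and colour from blue (lower) to red (higher). Values run from -1.81 to 1.08, and Tek, Tie1 and the endothelial list are blue across most NMBA arrays while Vegfb and the skeletal muscle list are both bluest in week 15 replicate 3. The fibroblast, lymphatic endothelial, pericyte and macrophage and myeloid lists are also bluest in that array.

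Promoters are shown for Flt1, Kdr and Tie1, the receptors called lower against control that have a RefSeq window. Each line gives the 250 bases before the start site from RefSeq (GRCr8), 5′ to 3′ along the gene, for Flt1 at chr12:12333180-12333429 (plus strand), Kdr at chr14:32571813-32572062 (plus strand) and Tie1 at chr5:137304982-137305231 (minus strand). Capitals mark GGAAG, the core letters of sites for ETS factors, or CTTCC, the same letters on the other strand.
Flt1 promoter: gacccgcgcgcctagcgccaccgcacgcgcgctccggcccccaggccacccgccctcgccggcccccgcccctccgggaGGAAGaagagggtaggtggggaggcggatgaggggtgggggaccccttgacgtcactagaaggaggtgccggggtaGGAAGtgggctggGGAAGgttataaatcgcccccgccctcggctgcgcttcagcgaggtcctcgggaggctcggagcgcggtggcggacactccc
Kdr promoter: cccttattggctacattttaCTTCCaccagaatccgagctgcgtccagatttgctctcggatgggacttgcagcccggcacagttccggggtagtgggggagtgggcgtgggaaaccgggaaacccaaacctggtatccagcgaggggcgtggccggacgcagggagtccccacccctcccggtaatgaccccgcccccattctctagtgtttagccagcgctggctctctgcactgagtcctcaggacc
Tie1 promoter: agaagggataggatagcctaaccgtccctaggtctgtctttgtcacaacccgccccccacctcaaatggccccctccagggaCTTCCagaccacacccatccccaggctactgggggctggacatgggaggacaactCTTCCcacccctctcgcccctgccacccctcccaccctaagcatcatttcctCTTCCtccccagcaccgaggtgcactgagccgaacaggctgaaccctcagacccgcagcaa
The Flt1 window holds 3 matches, the Kdr window 1 and the Tie1 window 3, and 63.3% of the 33469 windows hold at least 1. The letters ACGTG, the core of the hypoxia response element, are in none of the 8 windows of the family and in 16.6% of all windows. Only these 250 bases were searched, so a match farther from the start site would not be seen. Whether the family differs from that share was not tested. The motifs were chosen with the sequences in view.

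Other genes of the same pathways were taken from 4 lists. Of 17 measured further genes of the VEGF and angiopoietin pathways (other ligands, coreceptors, a phosphatase and signalling genes), 3 were lower at week 6, 1 at week 15 and 7 at week 29, and 0 were higher at any stage. The VEGF coreceptor Nrp2 was lower at week 6 by a log2 difference of -0.59 (limma adjusted p = 0.0498), Plcg1, which signals below KDR, by -0.63 (0.036) and Src by -0.53 (0.0307). Ptprb, the endothelial phosphatase that restrains TEK, was lower at week 15 (-0.55, 0.0172) and week 29 (-0.64, 0.0103). Also lower at week 29 were the endothelial nitric oxide synthase Nos3 (-0.53, 0.0137), Plcg1 (-0.66, 0.0212) and the adaptor Shb (-0.46, 0.0228). The median difference of the list was -0.13, 0.05 and -0.25 at weeks 6, 15 and 29.

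Hypoxia genes, among them regulators of Vegfa, moved in both directions. Of 17 measured, 3 were higher and 1 lower at week 6, 2 higher and 3 lower at week 15, and 5 higher and 5 lower at week 29. Egln3, a HIF prolyl hydroxylase and HIF target, was higher at week 6 by 0.41 (limma adjusted p = 0.0301), as were Pdk1 (0.38, 0.0352) and Egln1 (0.35, 0.0398), while Ndrg1 was lower (-0.45, 0.0353). At week 15 Egln3 was lower (-0.68, 0.00411), as were P4ha1 (-0.55, 0.0157) and the mitophagy receptor Bnip3 (-1.29, 0.0218), and Car9 was higher (0.36, 0.0429). At week 29 Hif1a was lower (-0.76, 0.0118), as were Ddit4 (-1.04, 0.00856) and the glucose transporter Slc2a1 (-1.02, 0.0151), and Egln1 was higher (0.47, 0.0119).

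Of 12 measured Notch and tip cell genes, 1 was higher and 1 lower at week 6, 0 were called at week 15 by limma, and 3 were lower at week 29. Esm1, a tip cell product induced by VEGF-A, was higher at week 6 by 0.68 (adjusted p = 0.0209), and the Notch target Hey1 was lower (-0.55, 0.0248). At week 15 the lowest p-values belonged to the apelin receptor Aplnr, at -0.52 (0.0524), and Dll1, at 0.61 (0.0596). At week 29 Hey1 (-0.60, 0.0117), Notch1 (-1.22, 0.0149) and the chemokine receptor Cxcr4 (-0.57, 0.023) were lower. Of 7 measured angiogenesis inhibitors, Col18a1, the source of endostatin, was lower at week 6 (-0.50, 0.0377) and week 29 (-0.58, 0.0168), and Serpinf1 (PEDF) at week 15 (-1.03, 0.0192). Keratinocyte markers moved with the same stages, with 4 of 12 lower at week 6, 0 at week 15 and 9 at week 29, and fibroblast genes with week 15, where 8 of 8 were lower. The skeletal muscle list had a median difference from control of 0.37, -0.89 and 0.34 at weeks 6, 15 and 29. The part of these cell types in the counts of the 4 lists, hypoxia genes included, was not tested.

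Genes with the most similar pattern over the 12 arrays were found by the root mean square difference of mean-centred log2 signal, among 7236 or 7237 genes with an SD over arrays of at least 0.2. The nearest to Kdr were Plxnd1 (0.0994), Adgrl4 (0.103) and Papss2 (0.108). Nearest to Tie1 were C13h1orf115 (0.11), Slc7a7 (0.112) and Tek (0.112). Nearest to Vegfa were Kmt2d (0.13), Nid2l2 (0.133) and Rnf10 (0.146), and nearest to Angpt1 were Rab21 (0.141), Jak2 (0.143) and Alox5 (0.149). The SD of Vegfa over the arrays was 0.18 and that of Angpt1 0.17, so these distances are close to the genes' own spread.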

How the data were processed

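Total RNA of 12 rat esophageal samples was measured on Affymetrix arrays, 3 per group. The authors deposited log2 probe set signals. The submitters' processing notes name Affymetrix Expression Console, and how probes were summarized is not stated in what was used here. Values ran from 2.4871 to 14.7136 and were used as deposited. The table holds 31099 probe sets, of which 31042 were tested and the 57 controls of the array were not. The platform annotation gave 1 symbol to 20826, several to 436 and none listed for 9780, and 14217 genes were named. Any pair of arrays had 7 to 47 probe sets whose deposited values were exactly equal. The number of arrays limits the precision.

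One limma model (version 3.58.1, R 4.3.3) of the 4 groups, with 8 residual degrees of freedom, gave 6 pairwise comparisons, with two-sided p-values adjusted by Benjamini-Hochberg over all probe sets. A gene was stood for by its probe set with the highest mean. Every member was named; from the pathway lists, up to 4 called genes per comparison with the lowest p (the 2 lowest where none was called), and endothelial genes by the same rule. The members and lists were chosen with earlier results of these data known. Alternatives covered scaling, dim probe sets, covariates, array weights, the threshold, a replicate block and leaving out arrays.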

Additional observations from a re-analysis of the deposited data

Results flagged for a closer look

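The members Vegfb, Angpt2, Vegfc and Flt1 differed between NMBA stages in a direct limma test of one stage against the other (3 arrays each). Vegfb was lower at week 15 than at week 6 by a log2 difference of -1.75 (adjusted p = 0.000212) and higher at week 29 than at week 15 by 1.83 (0.000145), without overlap of arrays. Angpt2 followed the same order, at -0.63 (0.00429) and 0.49 (0.0157). Vegfc was lower at week 15 than at week 6, at -0.38 (0.0371), called in 6 of 12 fits without 1 array and 7 of 11 other settings. With the muscle mean as a covariate, the differences of Vegfb, Angpt2 and Vegfc between weeks 6 and 15 were not called (limma adjusted p = 0.207, 0.191 and 0.631). In that fit the later rise was called for Vegfb (0.0438) and not for Angpt2 (0.198). Flt1 was lower at week 29 than at week 15, at -0.35 (0.035), a difference called in 5 of 11 other settings. Between weeks 6 and 15, 22.7% of all genes were called higher and 21.2% lower, so called differences were common there.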

How the results depend on the processing

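Of 1404 values of single members under the alternatives, 1281 stayed on their side of the threshold, 87 lost their call and 33 gained one. Another 3 turned in sign and were called in the main fit or the alternative. A turn in sign without a call in either was counted among the 1281. Those 3 were Tek (0.10) and Tie1 (0.20) at week 29 against control with the endothelial mean as a covariate, and Vegfa at week 15 against week 6 (-0.43) with the probe set of lowest p. The endothelial means of controls and week 29 did not overlap. Most of the 1404 values belong to differences not called in the main fit, so these counts do not measure how stable the calls were. Kdr at week 15 and Tie1 at week 29 against control held in 3 of 12 fits without 1 array, and Vegfb between weeks 15 and 29 in 12 of 12. The threshold of 0.1 and the probe set of lowest p could not lose a call. The counts of members called by limma moved as follows. At week 6 against control (0) the count was 2 with only the 6 arrays compared, 5 with array weights, 4 at an adjusted p under 0.1, and 1 without the week 15 arrays, an alternative chosen after seeing the data, and Vegfb was called in each. The others called at week 6 were receptors, all lower. They were Tie1 with only the 6 arrays, Flt1, Kdr, Tek and Tie1 with array weights, and Kdr, Tek and Tie1 at an adjusted p under 0.1. The week 6 count stayed at 0 with the GAPDH covariate (0 unadjusted) and with the endothelial covariate (1 unadjusted), against 5 unadjusted in the main fit. The shares of all genes called under these alternatives were not counted. At week 15 against control (3) the count was 0 with only the 6 arrays (6 at an unadjusted p under 0.05), 0 with the muscle covariate (2 unadjusted), 0 with the endothelial covariate (1 unadjusted) and 5 at an adjusted p under 0.1. At week 29 against control (4) it was 2 with only the 6 arrays, 0 with the GAPDH covariate (2 unadjusted) and 0 with the endothelial covariate (2 unadjusted). With the muscle covariate it was 0 at week 15 against week 6 (2 unadjusted) and 1 at week 29 against week 15, where Vegfb was called. Leaving out 1 array gave 0 to 2 members at week 6, 0 to 4 at week 15 and 0 to 4 at week 29 against control, 2 to 3 between weeks 6 and 15, 1 to 3 between weeks 15 and 29 and 0 to 0 between weeks 6 and 29. At week 29 the count was 0 without control replicate 1 or 3 or week 29 replicate 2 or 3, and at week 15 it was 0 without week 15 replicate 3. The replicate numbers showed no clear pairing of samples (mean correlation of deviations 0.0239 over 18 same-number pairs, range -0.413 to 0.29, and 3 of 12 samples correlated best with their own number). Over 36 different-number pairs the mean was -0.0115, range -0.344 to 0.523. With 3 arrays per group this cannot show that no pairing or shared batch existed. With the replicate block the counts were 0, 2 and 3 at weeks 6, 15 and 29 against control, 2 and 2 between successive stages and 0 between weeks 6 and 29.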
